A study of Homo sapiens with 6 samples.

Results

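The 8 laminin chain genes LAMA1, LAMA3, LAMA4, LAMA5, LAMB1, LAMB2, LAMB3 and LAMC1 were taken by their symbols from a table of 15761 genes, and all 8 were in it. RNA had been sequenced from SK-MES-1, an established wild-type line of human lung squamous carcinoma. The 3 control cultures grew without exosomes, and the 3 exosome cultures grew for 72 h in complete medium with 20 µg/ml of exosomes, the small membrane vesicles that cells release. Lung fibroblasts from the scarring disease idiopathic pulmonary fibrosis (IPF) had released the vesicles, and no group received vesicles from other cells. Whether the 3 cultures of a group were grown independently is not stated, and p-values therefore reflect only the spread among these libraries, which may be technical.

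Laminins are large secreted glycoproteins of the basement membrane, the sheet of matrix under epithelia. Each is a cross-shaped or T-shaped trimer of an α, a β and a γ chain joined in a coiled coil, and cells can secrete a trimer only after a β and a γ chain have paired and an α chain has joined them. The end of the α chain binds integrins and dystroglycan on the cell surface, and the short arms of most chains link trimers into a network. Lung epithelium makes an α5 laminin together with γ1, and an anchoring laminin that holds α3 and β3 and connects basal cells to the hemidesmosome.

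Library totals were 11346639 to 13334508 counts, so that 1 CPM (the unit of read counts scaled to the library total) stood for 11.3 to 13.3 reads. Control library 3 and exosome library 3 stood apart from the other libraries of their groups (chi-square per gene 12.1 and 16.2 to the other controls and 7.41 and 9.71 to the other exosome libraries, against 2.31 and 3.18 between those others). Leaving out either of them changed the call of none of the 7 chains tested. Of 7 tested markers of squamous epithelium 0 were higher and 4 lower (edgeR's quasi-likelihood test), beside 25.6% and 26.1% of all tested genes. The keratin KRT8 was at 2240 to 2400 CPM in control and 1890 to 2040 CPM with exosomes, KRT18 at 932 to 1030 and 791 to 810 CPM, the adherens junction cadherin CDH1 at 49.5 to 54.5 and 20.0 to 21.7 CPM, and KRT17 at 2.86 to 4.32 and 0.997 to 1.20 CPM. TP63 had 1.02 to 1.93 CPM in control and 2.13 to 2.4 CPM with exosomes and did not pass. SOX2 (3.56 to 4.76 and 3.37 to 7.37 CPM) and EPCAM (60.3 to 72.6 and 59.8 to 65.4 CPM) did not pass either. The basal keratins KRT5 and KRT14 stayed at or below 0.45 CPM in every library. The 8 fibroblast markers in the table, of 11 listed, summed to 107 to 118 CPM in control and 50.3 to 55.9 CPM in exosome libraries. Most of this was COL1A1 (57.9 to 63.7 CPM in control, 27.7 to 32.2 CPM with exosomes) and COL1A2 (36.7 to 43.4 and 11.8 to 15.5 CPM), which were lower, as was COL6A3 (log2 fold change -1.30). PDGFRB (7.47 to 7.76 and 6.38 to 7.27 CPM) did not pass, and PDGFRA, THY1, FAP and COL3A1 stayed at or below 0.441 CPM and were not tested. Summed markers of endothelium were at 10.6 to 12.5 CPM in control and 11.7 to 13.3 CPM with exosomes, and those of smooth muscle at 11.1 to 18.3 and 12.5 to 13.9 CPM. Among 4 immune markers, CD68 made up nearly all of 141 to 173 CPM in control and 193 to 201 CPM with exosomes, and PTPRC, the pan-leukocyte marker, stayed at or below 0.353 CPM. The part of these marker levels in the laminin results was not tested.

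With exosomes the α chain LAMA3 and the β chain LAMB1 rose by 1.37-fold each and LAMA5 by 1.22-fold, while the γ chain LAMC1 fell 1.33-fold and the low α chain LAMA1 fell 2.29-fold. The β chains LAMB2 and LAMB3 did not pass the test. LAMA4 had too few reads to be tested. Exosome and control libraries did not overlap in CPM for 5 of the 7 tested chains, 3 above and 2 below, where 35.0% of all tested genes lay above and 24.5% below. So 3 of 7 tested chains were higher and 2 lower, where 25.6% of all 12449 tested genes were higher and 26.1% lower (edgeR's quasi-likelihood test, Benjamini-Hochberg adjusted p under 0.05). With 51.7% of all genes called, the number of chains called is no result about the laminins as a family, and what follows is which chains went which way. In a bulk sample, fewer cells that make a transcript and less of it per cell cannot be told apart.

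Fold changes over all genes in these libraries followed transcript composition. Across the 12449 tested genes, which are not independent replicates, the Spearman correlation of the log2 fold change was 0.617 with the GC content of the longest transcript and -0.393 with its length. The chains span much of that range, from 48.7% GC in LAMC1, 49.5% in LAMB1, 50.5% in LAMA1 and 50.7% in LAMA3 to 58.9% in LAMB3, 60.3% in LAMB2 and 66.4% in LAMA5. Each fold change is therefore also given with the GC and length trend of each library removed. In that fit 18.2% of all tested genes were higher and 17.3% lower, and 2 of 7 chains were higher and 4 lower.

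**Figure D1:**
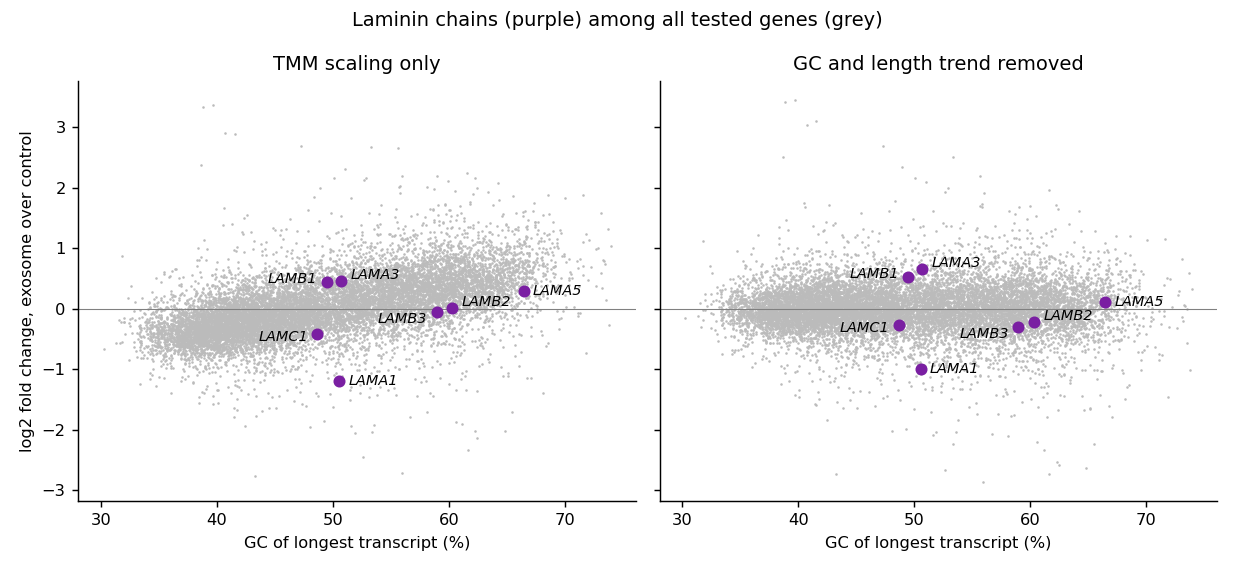
Log2 fold change of exosome over control (y axis) against the GC content of the longest annotated transcript in percent (x axis) for every tested gene (grey) and the tested laminin chains (purple), without (left) and with (right) the GC and length trend of each library removed. LAMA3 and LAMB1 sit in the upper part of the cloud in both panels, with log2 fold changes of 0.45 each on the left and 0.66 and 0.52 on the right, and LAMB2 and LAMB3 lie near 0 on the left and below 0 on the right.

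The promoters are shown for LAMA3 and LAMB1, the chains that rose in both fits, for LAMC1, the most abundant chain that fell, and for LAMB3, the partner of α3 in the anchoring laminin. Each line holds the 250 bases before a transcript start in RefSeq (GRCh38.p14), 5′ to 3′ on the gene's strand. Capitals mark TGANTCA, the letters bound by AP-1 factors, and GGGCGG, the GC box bound by SP1, each searched on both strands (CCGCCC is the GC box on the other strand). The lines lie at chr18:23872770-23873019 (plus strand) for LAMA3, chr7:108003162-108003411 (minus strand) for LAMB1, chr1:183023170-183023419 (plus strand) for LAMC1 and chr1:209651375-209651624 (minus strand) for 1 of 3 starts of LAMB3.
LAMA3: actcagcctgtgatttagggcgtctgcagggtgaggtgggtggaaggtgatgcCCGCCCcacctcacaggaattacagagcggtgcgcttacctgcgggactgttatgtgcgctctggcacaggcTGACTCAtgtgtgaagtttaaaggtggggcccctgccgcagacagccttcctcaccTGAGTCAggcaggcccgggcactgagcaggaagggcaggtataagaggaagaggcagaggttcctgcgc
LAMB1: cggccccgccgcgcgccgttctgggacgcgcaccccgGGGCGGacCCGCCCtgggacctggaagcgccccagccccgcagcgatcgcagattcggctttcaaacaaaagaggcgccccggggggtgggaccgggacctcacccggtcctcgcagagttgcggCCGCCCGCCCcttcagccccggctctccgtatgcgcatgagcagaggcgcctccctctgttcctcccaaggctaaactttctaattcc
LAMC1: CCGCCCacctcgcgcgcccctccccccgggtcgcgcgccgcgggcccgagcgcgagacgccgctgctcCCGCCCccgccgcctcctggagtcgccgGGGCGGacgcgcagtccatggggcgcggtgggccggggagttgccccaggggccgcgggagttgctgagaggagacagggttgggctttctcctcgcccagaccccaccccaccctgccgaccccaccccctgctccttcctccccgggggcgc
LAMB3: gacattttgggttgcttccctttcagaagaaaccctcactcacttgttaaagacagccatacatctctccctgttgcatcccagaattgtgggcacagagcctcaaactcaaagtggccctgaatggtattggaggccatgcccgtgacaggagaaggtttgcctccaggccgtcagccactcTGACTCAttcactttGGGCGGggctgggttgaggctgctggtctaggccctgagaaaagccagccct
The LAMA3 start lies inside the gene, so this window is not that of the longest transcript, and the read counts per gene do not tell its transcripts apart. TGANTCA occurred 2 times before this LAMA3 start, at -125 and -69, and 1 time before this LAMB3 start, at -67. The windows of LAMA4, LAMA5, LAMB1, LAMB2 and LAMC1 and the other windows of LAMB3 did not hold these letters, and 7.7% of all 35116 windows of 300 bases (250 before and 50 after a start) did. GGGCGG occurred in 45.0% of all windows, 5 times in that of LAMA5, 4 times in that of LAMB1, 3 times in that of LAMC1, 1 time in those of LAMA3 and LAMB2, 1 time in each of the LAMB3 windows (the same box in 2 that overlap) and not in that of LAMA4. LAMB1 and LAMC1 each held several GC boxes and no TGANTCA in these windows. The part of these letters in the changes was not tested.

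Among the α chains, LAMA3 encodes α3, the chain through which epithelial cells anchor to the basement membrane via the integrins α3β1 and α6β4. It lies on chromosome 18 from 23689443 to 23956222 (GRCh38, plus strand). LAMA3 had 192, 201 and 208 CPM in control libraries 1 to 3 and 289, 285 and 296 CPM in exosome libraries 1 to 3. The groups were far apart, and libraries of a group differed little. Its log2 fold change was 0.45 with an SE of 0.073 (adjusted p = 3.14e-05 by edgeR; values after ± below are SEs unless said otherwise). It was 0.66 ± 0.054 with the trend removed (adjusted p = 1.01e-08). Fitted folds are slightly lower than ratios of CPM because the fit also scales each library by a TMM factor, 0.962 to 0.983 in control and 1.01 to 1.04 in exosome libraries. The call held under all 17 settings that were run, with log2 fold changes of 0.43 to 0.66.

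LAMA5 encodes α5, the main α chain of the lung's epithelial basement membrane, and lies on chromosome 20 from 62307955 to 62367312 (minus strand). It had 441, 429 and 410.3 CPM in control and 590.0, 548 and 519 CPM with exosomes, so the groups did not overlap, although the exosome libraries spread more widely. The log2 fold change of 0.29 ± 0.076 passed the test (adjusted p = 0.00300). With the trend removed it was 0.11 ± 0.056 and did not pass (adjusted p = 0.151, 95% confidence interval -0.011 to 0.22). LAMA5 has the highest GC content of the chains, and it overlaps ADRM1 and the antisense gene LAMA5-AS1 on the other strand. No source used here says whether reads were counted by strand, and the share of such reads was not tested.

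LAMA1 encodes α1, a chain of the early embryo that few adult epithelia keep, and lies on chromosome 18 from 6941744 to 7117814 (minus strand). LAMA1 was low, with 53, 43 and 75 reads in control and 25, 37 and 22 reads with exosomes. Every exosome library was below every control library, and control library 3 was the highest. This is 4.59 ± 1.07 CPM in control and 2.13 ± 0.627 CPM with exosomes (mean ± SD, n = 3). Its log2 fold change was -1.19 ± 0.27 (adjusted p = 0.000768), -0.99 ± 0.26 with the trend removed (adjusted p = 0.00495) and -0.98 without control library 3 (adjusted p = 0.00622). LAMA1 overlaps 2 antisense genes.

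LAMA4 encodes α4, the α chain of blood vessels and other mesenchymal tissue, and lies on chromosome 6 from 112108760 to 112254939 (minus strand). It had 4, 3 and 2 reads in control and 12, 9 and 8 reads with exosomes. All exosome libraries were higher, but the gene stayed below the filter on low counts. In the fit without that filter, where 21.2% of 15761 genes were higher and 19.8% lower, its log2 fold change was 1.49 ± 0.71 and did not pass (adjusted p = 0.0810). The remaining α chain in the table, LAMA2 of the muscle basement membrane, had 11 to 13 reads in control and 4 to 20 with exosomes, with overlapping groups.

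**Figure D2:**
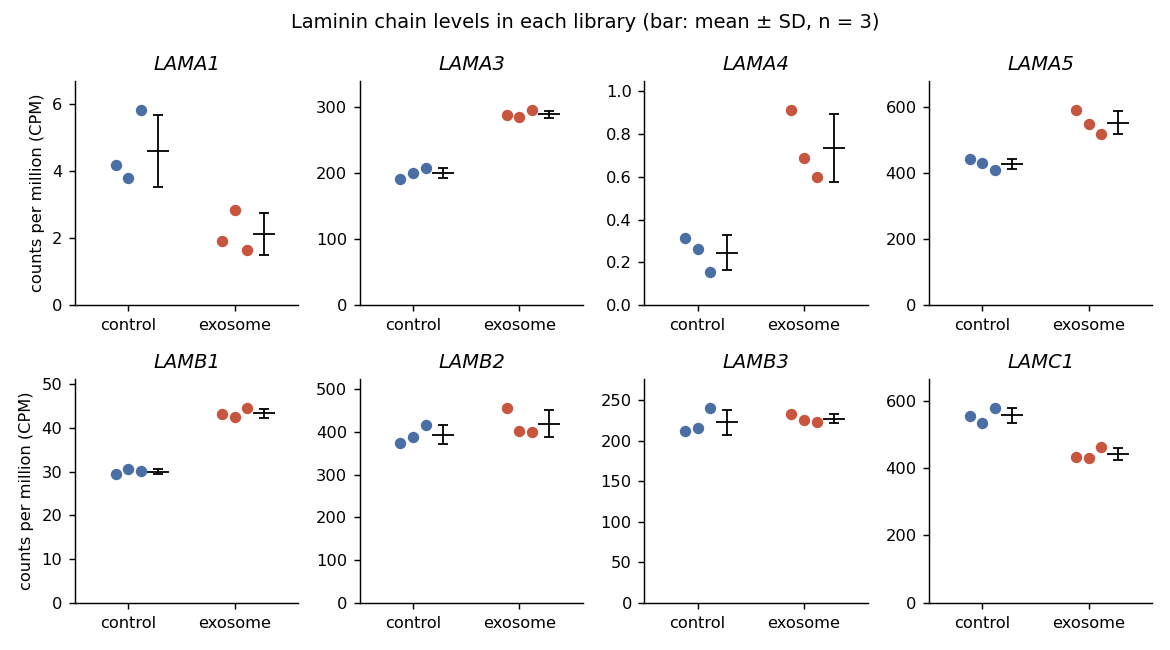
Level of each of the 8 laminin chains in CPM (y axes from 0, scaled per chain) in each control and exosome library, with the group mean ± SD (n = 3) beside the points. The groups are apart for LAMA1, LAMA3, LAMA4, LAMA5, LAMB1 and LAMC1 and overlap for LAMB2 and LAMB3.

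Of the β chains, LAMB1 encodes β1, which pairs with γ1 in the common laminins of most tissues. It lies on chromosome 7 from 107923799 to 108003255 (minus strand). LAMB1 had 29.4, 30.5 and 30.1 CPM in control and 43.1, 42.6 and 44.5 CPM with exosomes. The groups were well apart, with little spread within each. Its log2 fold change was 0.45 ± 0.096 (adjusted p = 0.000480), or 0.52 ± 0.083 with the trend removed (adjusted p = 5.61e-05), and it was called higher under all 17 settings. LAMB1 overlaps DLD and an antisense gene on the other strand, whose share of the reads was not tested.

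LAMB2 encodes β2, known from the kidney filter and the neuromuscular junction, and lies on chromosome 3 from 49121114 to 49133118 (minus strand). It had 374, 389 and 418 CPM in control and 456, 403 and 400.0 CPM with exosomes. The groups overlapped, and exosome library 1 was the highest. Its log2 fold change was 0.011 ± 0.077 (adjusted p = 0.918), with a 95% confidence interval of -0.15 to 0.17. With the trend removed LAMB2 was lower (-0.22 ± 0.060, adjusted p = 0.00613).

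LAMB3 encodes β3, found with α3 in the anchoring laminin, and lies on chromosome 1 from 209614870 to 209652466 (minus strand). It had 211, 216 and 240.3 CPM in control and 233, 225 and 223 CPM with exosomes. All exosome values lay inside the range of the controls. Its log2 fold change of -0.052 ± 0.075 did not pass (adjusted p = 0.586, 95% confidence interval -0.21 to 0.10). With the trend removed LAMB3 was lower (-0.30 ± 0.064, adjusted p = 0.000905), so that LAMB3 did not follow LAMA3 upward in either fit.

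LAMC1 encodes γ1, the γ chain of most laminins, and lies on chromosome 1 from 183023460 to 183145592 (plus strand), where it overlaps the antisense gene LAMC1-AS1. LAMC1 had 556, 535 and 578 CPM in control and 433, 429 and 463 CPM with exosomes. The highest exosome library was below the lowest control library. Its log2 fold change was -0.41 ± 0.075 (adjusted p = 0.000102), or -0.27 ± 0.056 with the trend removed (adjusted p = 0.000791), and it was called lower under all 17 settings. LAMC3 and the β chain LAMB4 had 1 to 6 and 5 to 17 reads per library and were not tested. In the fit without the filter neither passed (adjusted p = 0.973 and adjusted p = 0.412).

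**Figure D3:**
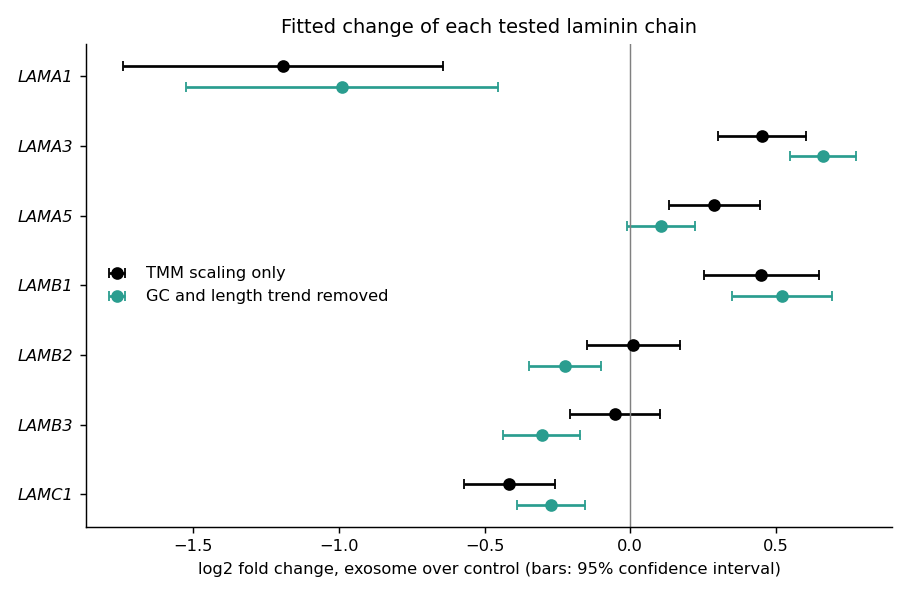
Fitted log2 fold change of exosome over control with its 95% confidence interval (x axis) for the 7 tested chains, with TMM scaling only (black) and with the GC and length trend removed (green). LAMA3 and LAMB1 are above 0 and LAMA1 and LAMC1 below 0 in both fits, while the intervals of LAMA5, LAMB2 and LAMB3 exclude 0 in only 1 of them.

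Levels of different genes were compared on the authors' FPKM, which divides by gene length. The LAMA3 transcripts were not told apart, so the place of LAMA3 in the order below depends on the length used. In control, LAMC1 (70.5 ± 2.74 FPKM, mean ± SD, n = 3) and LAMB2 (68.3 ± 3.84 FPKM) were highest, with overlapping libraries. LAMB3 (49.6 ± 3.48), LAMA5 (37.4 ± 1.36) and LAMA3 (18.1 ± 0.707 FPKM) followed, each with all libraries below those of the gene before. LAMB1 (4.82 ± 0.0892 FPKM) came after these, and LAMA1 (0.465 ± 0.109) and LAMA4 (0.0312 ± 0.0104 FPKM) were last. With exosomes LAMB2 led (72.9 ± 5.52 FPKM), every library above those of LAMC1 (55.97 ± 2.36 FPKM). Control means times the fitted folds of the fit with the trend removed gave 58.5 FPKM for LAMB2 and 58.4 FPKM for LAMC1. LAMB2 thus had no clear lead in that fit. LAMB3 (50.6 ± 1.24 FPKM) and LAMA5 (48.4 ± 3.10 FPKM) then overlapped, and LAMB1 stood at 6.98 ± 0.166 FPKM.

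**Figure D4:**
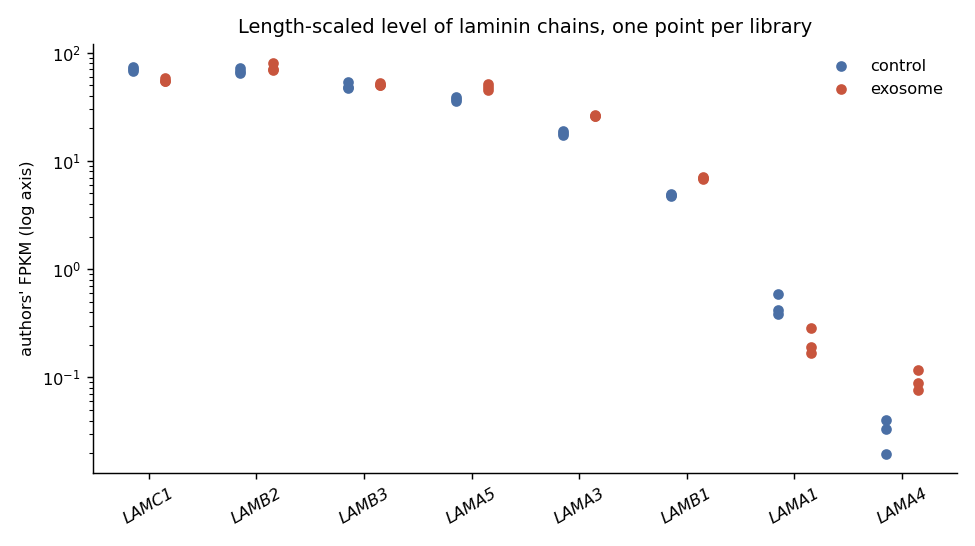
Length-scaled level (authors' FPKM, log axis) of the 8 chains in each control (blue) and exosome (red) library, ordered by the control mean. LAMC1 and LAMB2 lead in control, and LAMB2 is above LAMC1 in every exosome library.

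LAMA5 and LAMA3 made up nearly all of the summed α chain FPKM in both groups. The split between them depends on the length used for LAMA3, whose transcripts were not told apart. Reads from a shorter transcript would make the LAMA3 share too low and the LAMA5 share too high. The LAMA5 share of summed α FPKM was 68.3, 66.8 and 64.8% in control and 66.0, 64.5 and 62.7% with exosomes. That of LAMA3 was 30.8, 32.3 and 33.9% in control and 33.4, 34.8 and 36.9% with exosomes, and both pairs of groups overlapped. The mean LAMA3 share was 2.70 percentage points higher, or 1.76 without exosome library 3 (exact two-sided permutation test, p = 0.2, adjusted p = 0.3 over the 9 α and β shares). The LAMA1 share went from 0.831 ± 0.203% to 0.288 ± 0.0861%, without overlap. Among the β chains, the LAMB1 share was 4.05, 4.07 and 3.70% in control and 5.01, 5.39 and 5.66% with exosomes. That of LAMB3 was 40.3, 39.9 and 40.9% in control and 37.6, 39.5 and 39.3% with exosomes. Groups did not overlap for either (exact permutation p = 0.1 each, the smallest that 3 against 3 allows, adjusted p = 0.225), while LAMB2 stayed near 55.7 ± 0.306% in control and 55.8 ± 1.35% with exosomes. No share could pass the threshold in this design.

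Summed by class, the α chains went from 56.6, 56.3 and 55.4 FPKM in control to 78.3, 74.4 and 72.5 FPKM with exosomes, while LAMC1 went from 70.4, 67.8 and 73.3 FPKM to 54.9, 54.3 and 58.7 FPKM. The β chains overlapped, at 117 to 131 FPKM in control and 126 to 138 FPKM with exosomes. The ratio of the α sum to LAMC1 was 0.803, 0.830 and 0.756 in control and 1.43, 1.37 and 1.24 with exosomes, so LAMC1 was above the α sum in each control library and below it in each exosome library. This ratio was formed after the chain values had been seen and is given with no test. LAMC1 is not the only γ chain, so the ratio does not set all α against all γ transcripts. The ratio also depends on the length by which LAMA3 reads were divided, because the LAMA3 transcripts were not told apart. If the reads came from a shorter transcript, the α sum would be higher and might not lie below LAMC1 in control. Applying the fitted folds to the mean control FPKM of the tested chains gave ratios of 0.795 in control and 1.34 with exosomes, or 1.19 with the trend removed. Transcript levels do not show how many trimers were assembled or secreted.

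**Figure D5:**
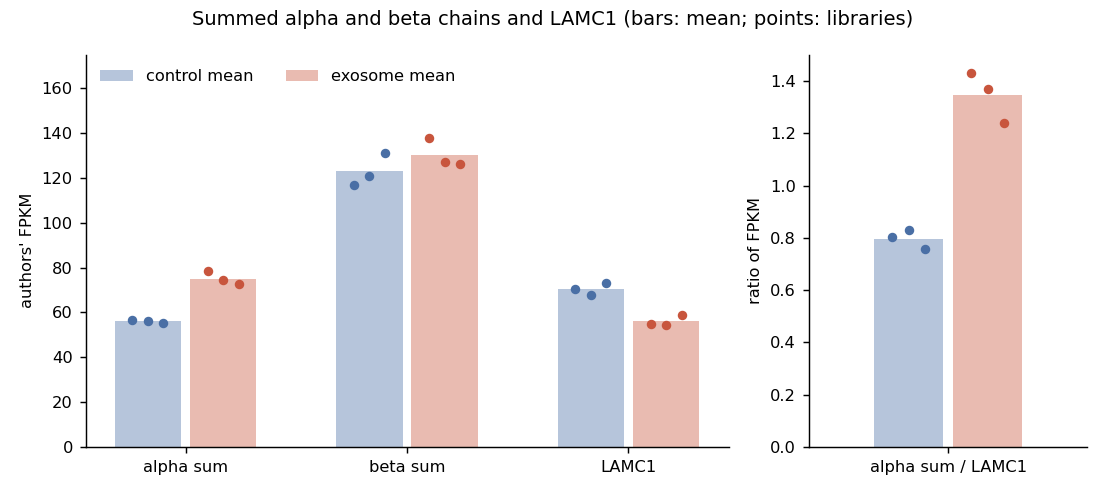
Left, summed authors' FPKM of the α and β laminin chains and FPKM of LAMC1, and right, the ratio of the α sum to LAMC1, in each control (blue) and exosome (red) library, with bars from 0 at the group mean. The α sum is higher and LAMC1 lower in every exosome library, and the ratio goes from 0.756 to 0.830 in control to 1.24 to 1.43 with exosomes.

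Genes whose log2 CPM followed LAMA3 most closely over the 6 libraries were PRKAB1, a subunit of the energy sensor AMPK (Pearson r = 0.998), ABCC5, a drug efflux pump (r = 0.998), and DESI1 (r = 0.996). Those closest to LAMC1 were KLHL4 and ENPP1, an ectoenzyme that makes pyrophosphate (r = 0.998 each). Such likeness was common, since 619 of 12441 genes compared had r above 0.95 with LAMA3 and 1091 with LAMC1, and the 6 points share the same libraries and the same split into 2 groups.

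Of 14 laminin receptors and their partners, 13 were tested, of which 2 were higher and 6 lower, where 25.6% of all tested genes were higher and 26.1% lower (median log2 fold change -0.16, against -0.0042 over all tested genes). With the trend removed 2 were higher and 8 lower, where the shares over all tested genes were 18.2% and 17.3%. The same shares are the background of the lists that follow. BCAM, the Lutheran glycoprotein that binds α5, had a mean of 35.2 CPM in control and 75.5 CPM with exosomes and rose (log2 fold change 1.02, or 0.60 with the trend removed). The cell surface proteoglycan SDC4 (-0.58), the adhesion molecule MCAM, a receptor for α4 laminin (-0.69), and ITGA6, the α6 integrin subunit that binds α3 and α5 laminins (-0.47), fell and were also lower with the trend removed (-0.66, -0.83 and -0.22). In the hemidesmosome list, which shares ITGA6, ITGB4 and CD151 with the receptors, 6 of 8 genes were tested, and 2 were higher and 2 lower (median 0.11; with the trend removed 0 were higher and 2 lower in edgeR's test). ITGB4, the β4 partner of α6, rose by 0.34, COL17A1, a transmembrane collagen, by 0.31, and the linker DST fell by 0.56 on the log2 scale. None of these 3 passed with the trend removed (0.020, 0.19 and -0.040). The adjusted p of COL17A1 was 0.0989 in the fit lacking control library 3 and 0.152 in the one lacking exosome library 1, where the list had 1 higher member.

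Of 23 other basement membrane genes 21 were in the table and 14 were tested, and 4 were higher and 6 lower, beside 25.6% and 26.1% of all tested genes (median -0.34). With the trend removed 1 was higher and 9 lower, beside 18.2% and 17.3%. The higher members numbered 2 without control library 2 or without exosome library 1, and 1 without exosome library 2. FRAS1 (-0.71), the fibulin EFEMP1 (-0.48), the collagen-binding SPARC (-0.40) and NTN4, a netrin that binds laminin γ1 (-0.40), fell and stayed lower with the trend removed (-0.40, -0.39, -0.37 and -0.40). Perlecan (HSPG2), a proteoglycan that binds laminin, had a mean of 322 CPM in control and 268 CPM with exosomes and fell (-0.35, with the trend removed -0.41). Agrin (AGRN), another laminin-binding proteoglycan, was at 396 and 492 CPM and was higher in the first fit (0.23, adjusted p = 0.0234) and lower in the second (-0.16, adjusted p = 0.0285). Its adjusted p was 0.172 without exosome library 1 and 0.0530 without exosome library 2. The collagen IV chains and nidogens had few reads. COL4A1 and COL4A2, which encode the common collagen IV chains, had at most 3 and 5 reads in any library, and the nidogens NID1 and NID2 at most 3 and 13 reads. COL4A5, with 5 to 8 reads in control and 12 to 23 with exosomes, was called higher in both fits (1.17 and 1.23, adjusted p = 0.0366 and adjusted p = 0.0403). Omitting control library 2, control library 3, exosome library 2 or exosome library 3 ended that call (adjusted p between 0.0577 and 0.184). The same held with no filter on low counts (adjusted p = 0.0567) and in DESeq2 (adjusted p = 0.0856). These 7 genes were singled out after their values had been seen. Among 15 tested genes that process laminin or glycosylate dystroglycan, 6 were higher and 1 lower, beside 25.6% and 26.1% of all tested genes (median 0.14; with the trend removed 2 and 2, beside 18.2% and 17.3%). POMGNT1, which extends the sugar chain of dystroglycan, rose (0.51, with the trend removed 0.26). LARGE2, which adds the laminin-binding repeat to that chain, rose (0.82) but did not pass with the trend removed (0.36, adjusted p = 0.0685). Of 8 relatives with laminin-type short-arm modules, 2 were higher and 2 lower (median 0.27; with the trend removed 1 and 3). NTN1, a guidance netrin, rose (0.70, with the trend removed 0.41), MEGF9 fell (-0.75, with the trend removed -0.51), and ATRN (-0.30) and NTNG2 (0.79) did not pass with the trend removed (-0.11 and 0.48). When control library 1, control library 2, exosome library 1 or exosome library 2 was left out, NTNG2 missed the threshold as well (adjusted p = 0.0579 to 0.102), and the higher members of that list numbered 1 in the last 3 of these cases.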

How the data were processed

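RNA of 6 SK-MES-1 cultures was isolated with Trizol and sequenced from NEBNext Ultra libraries, per the labels' protocols. The submitters' processing notes name STAR and GRCh38 (hg38). Not given in the sources used here are the counting program, annotation and strand setting. One deposited table holds the authors' read counts per gene, used for every fit, and the authors' FPKM, used for levels between genes (the length behind it is not stated). The authors' size-factor normalised signal, log2 fold changes and p-values were not used. Quasi-likelihood fits used edgeR 4.0.16 (R 4.3.3) with TMM factors, its filterByExpr rule, robust dispersions and group as the model, and p-values were adjusted over 12449 genes. The SE was obtained by dividing the log2 fold change by the square root of F. In the second fit a loess trend (span 0.3) of each library on GC and log2 length of the longest GENCODE 29 transcript, known for all 12449 genes, entered as an offset. Positions count from 1; those of the table lie 1 base lower in 15490 genes compared. Promoters are RefSeq's; none was used for LAMA1. The other fits used RLE, library totals, other filters, DESeq2 1.42.0, limma-voom 3.58.1, a stricter threshold (0.01), the replicate block and omission of each library in turn. The edgeR, limma-voom, DESeq2 and trend-removed fits were also run on simulated counts. These held no GC or length trend between groups, so they do not test the trend correction. Named genes were the laminin chains, up to 4 genes per list with the smallest adjusted p, and the 3 genes most like the leading risen and fallen chain; values of 4 genes within this rule are left out here. The chains, lists and the trend correction were chosen with earlier results of these data known.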

Additional observations from a re-analysis of the deposited data

How the results depend on the processing

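LAMA3, LAMB1, LAMA1 and LAMC1 kept their direction and call under all 17 settings. With the GC and length trend removed, 4 chains were lower in place of 2, with or without the replicate block, and 2 higher in place of 3. LAMB2 turned to -0.22 in both of those fits, and ranged from -0.048 to 0.062 on leaving out 1 library (-0.0084 and -0.048 without control library 1 and exosome library 1). LAMB3 was 0.030 with library totals and ranged from -0.072 to 0.013 on leaving out 1 library. The sparse LAMA2 was -0.24 with limma-voom, -0.018 with the replicate block and -0.30 to 0.48 on leaving out 1 library, never past the threshold. Of the genes in the other lists, 15 were higher and 16 lower, beside 25.6% and 26.1% of all 12449 tested genes. At a threshold of 0.01 they numbered 8 and 16, beside 2355 and 2433 of all tested genes. With the trend removed they numbered 6 and 22, with or without the replicate block, beside 18.2% and 17.3% of all tested genes without that block. On leaving out 1 library they numbered 9 to 14 and 16 to 17 (9 higher without exosome library 1). Over all genes, 2503 to 3234 were then higher and 2608 to 3375 lower. AGRN turned from 0.23 to -0.16 with the trend removed, with or without the replicate block. Over all genes 3191 were higher and 3244 lower, 3811 and 2496 with library totals, and 2263 and 2148 with the trend removed. The difference of the LAMB2 share was 0.111 percentage points and -0.666 to 0.534 on leaving out 1 library, that of the LAMA2 share -0.0341 and -0.0618 to 0.0169. The difference of the ratio of α sum to LAMC1 was 0.547, and 0.391 with the trend removed. The cause of these changes was not tested. Same-numbered libraries deviated together with correlations of 0.0664, 0.103 and 0.206, so the numbers are not shown to pair the samples. The replicate block moved the calls over all genes to 3444 higher and 3524 lower and changed no chain's call. Depth limits LAMA4, LAMB4 and LAMC3, which had at most 17 reads in a library.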
